A study of Homo sapiens with 4 samples.

Results

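Arg1 and Mmp12 macrophages were a small group of host mouse cells in lesions formed by MCF10DCIS.com cells, a human line that models ductal carcinoma in situ of the breast. They were chosen from the counts themselves. A member was a barcode with at least 90% mouse unique molecular identifiers (UMIs, counted transcript molecules), 2000 or more gene UMIs and at most 20% mitochondrial UMIs. S100a8 and S100a9 had to make up less than 3% of its mouse UMIs, Col1a1, Col1a2 and Col3a1 less than 0.1%, and C1qa, C1qb and C1qc less than 0.2%, while Arg1 and Mmp12 together reached at least 0.2%. The rule found 147 cells among 34722 barcodes, 85 of 16965 in the young pool and 62 of 17757 in the aged pool. They were compared with C1q-high macrophages, the cells of the same gate with 0.2% or more of C1q, which numbered 381 and 458.

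The recipients were Rag1-/- mice, a strain without mature lymphocytes of the T and B lineages. MCF10DCIS.com cells were seeded on decellularised extracellular matrix (dECM) from mammary glands of young mice (2 to 3 months) or of aged mice (18 months or more), cultured for 12 days and implanted in mammary fat pads. Tumour with adjacent stroma was taken 4 weeks later, dead cells were removed, and each matrix age gave 1 pooled gene expression library (young pool and aged pool, always named in that order below). Age refers to the matrix, not to the host whose macrophages were sequenced; the series' design places both matrices in the same mice, and the hashing antibodies used were directed at human cells. No test between pools was possible with 1 library a group, so all intervals below are exact 95% intervals of counting error and do not contain the spread between animals.

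Macrophages take up debris, kill microbes and remodel tissue, and their programme depends on where they come from and what surrounds them. Arg1 encodes arginase 1, which hydrolyses arginine and is known from alternatively activated and hypoxic tumour macrophages. Mmp12 encodes macrophage metalloelastase, which degrades elastin and other matrix proteins, Spp1 encodes the secreted matrix ligand osteopontin, and Inhba encodes the subunit of activin A, a ligand of the TGF-beta family. C1q-high macrophages carry the complement component that tags apoptotic cells and are typically resident-like or mature tumour macrophages.

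Members made up 0.649% (0.519 to 0.802) of mouse barcodes in the young pool and 0.435% (0.334 to 0.558) in the aged pool. Against members and C1q-high cells together they were 18.2% (14.8 to 22.1) and 11.9% (9.26 to 15.02). C1q-high macrophages were 2.91% and 3.22% of mouse barcodes. The members' share was thus lower in the aged pool while the C1q-high share was not, but each pool is a single library, so its dissociation and loading cannot be told apart from matrix age. Both pools had similar depth: the summed mouse UMIs of members were 912410 and 762696, with a median of 8831 and 9107 UMIs a cell, and C1q-high cells had medians of 9770 and 9061. Between the pools 190 barcodes had the same sequence, 1 of them a member's, and none was a member in both.

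The threshold cut through a continuous range of Arg1 and Mmp12. Summed Arg1 and Mmp12 in members ran from 0.201% to 4.47% (median 0.654%) in the young pool and from 0.201% to 4.12% (median 0.444%) in the aged pool. Just inside the limit, from 0.2% to 0.3%, were 17 and 17 members, and just outside it, from 0.15% to 0.2%, were 6 and 14 cells with low C1q. C1q was not found in 56 of 85 and 39 of 62 members. A further 54 and 40 cells had Arg1 and Mmp12 over the limit together with C1q over its own limit, 14.2% (10.8 to 18.1) and 8.73% (6.31 to 11.7) of C1q-high cells. These cells with both sets of genes were counted as C1q-high. They held a median of 17341.5 and 16419.5 UMIs, well above both classes, and whether they are single cells was not tested.

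The label was checked against macrophage markers that the rule did not use. Of 12 macrophage genes, a member held a median of 8 in the young pool and 9 in the aged pool, and 81 of 85 and 61 of 62 members held 6 or more. The same was true of 377 of 381 and 453 of 458 C1q-high cells, of 8.94% and 8.48% of collagen-positive cells and of 15.2% and 13.6% of S100-high neutrophils. These counts used all UMIs of a cell. Neutrophils held a median of 2979 and 2859.5 UMIs against 8831 and 9107 in members, and the part of depth was not tested. Ly6c2 monocytes were not counted in this way. The summed level of the 12 genes was 20714 and 24101 CPM (UMIs in 1000000 mouse UMIs) in members and 20700 and 20696 CPM in C1q-high cells. Ly6c2 monocytes had as much, 22393 and 21108 CPM, so the sum does not separate macrophages from monocytes. Against C1q-high cells, 0 of the 12 genes were higher by 2-fold in both pools and 3 were lower (Adgre1, Mertk and Ms4a7), with a median log2 ratio of -0.35. Adgre1, which encodes the macrophage surface protein F4/80, was found in 4.37% and 4.09% of members and in 24.8% and 28.1% of C1q-high cells at 1800 UMIs a cell. Ms4a7, a membrane protein of mature macrophages, was found in 22.0% and 18.3% of members and in 67.0% and 74.1% of C1q-high cells. The label thus rests on shared myeloid genes, with these mature macrophage genes lower than in C1q-high cells.

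Defining genes of other leukocytes were at or near 0 in members. Ly6g, the neutrophil surface marker, Siglecf of eosinophils, Flt3 of dendritic cells, Ncr1 of NK cells, Cpa3 of mast cells and Gata3 of type 2 innate lymphoid cells had no UMI in any member, and a count of 0 over all members of a pool allows up to 3.29 and 3.93 CPM. Of each list, 5 and 5 of 5 eosinophil genes, 7 and 6 of 7 mast cell genes, 7 and 7 of 9 dendritic cell genes, 6 and 5 of 7 NK cell genes, 4 and 5 of 8 type 2 innate lymphoid cell genes and 5 and 5 of 6 T or B cell genes were at 0. The 8 neutrophil genes outside the rule summed to 739 and 770 CPM, against 17012 and 18534 CPM in S100-high neutrophils and 8120 and 7670 CPM among the mouse UMIs of human barcodes, which sample free RNA. A human barcode held a median of 214.5 and 234 mouse UMIs and a member 8733 and 8991. Ly6c2, the defining surface marker of classical monocytes, was at 7.67 and 18.4 CPM in members. It was at 1008 and 1027 CPM in Ly6c2 monocytes, which were chosen by this gene, so their level is a description.

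Arg1 (ENSMUSG00000019987) chose the members, so its level is a description. Members had 4511 and 3444 CPM of Arg1, C1q-high macrophages 920 and 441 CPM, Ly6c2 monocytes 12.8 and 2.81 CPM and mouse UMIs of human barcodes 190 and 65.3 CPM. Mmp12 (ENSMUSG00000049723), the other rule gene, had 7714 and 5382 CPM in members, 1890 and 967 CPM in C1q-high cells and 4.26 and 9.36 CPM in monocytes. Outside the members, C1q-high macrophages had more of both genes than monocytes and human barcodes. That class had no upper limit for Arg1 and Mmp12 and kept the 54 and 40 cells over the members' limit. The order thus depends on how the classes were cut and is no finding. Arg1 was found in 25.7% and 17.0% of C1q-high cells.

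Spp1 (ENSMUSG00000029304) was high in members and in other classes. Its level was 11627 and 12920 CPM in members, 6218 and 5344 CPM in C1q-high macrophages, 21876 and 15054 CPM in collagen-positive cells and 222 and 154 CPM in monocytes. The ratio of members to C1q-high cells was 1.87 (1.83 to 1.91) and 2.42 (2.36 to 2.47). A single cell held 23.0% and 29.8% of the members' Spp1 UMIs, and Spp1 was found in 74 of 85 and 57 of 62 members. Weighting every cell equally lowered the mean log2 ratio from 1.09 to 0.80, and a C1q limit of 0.1% for members to 0.50.

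Inhba (ENSMUSG00000041324), was higher in members than in each of the other myeloid classes. Members had 732 and 312 CPM of Inhba, C1q-high macrophages 22.4 and 8.63 CPM, monocytes 23.0 and 37.5 CPM and neutrophils 70.1 and 71.7 CPM. Collagen-positive cells, a stromal source of activin, had 460 and 394 CPM. The ratio of members to C1q-high cells was 32.7 (26.5 to 40.7) and 36.2 (26.1 to 51.3). Inhba was found in 50.6% and 40.3% of members and, with each cell thinned to 1800 mouse UMIs, in 36.9% and 23.0%, against 1.35% and 1.11% of C1q-high cells. Ranked by the smaller ratio of the pools, it was the first of the genes measured outside the rule.

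**Figure D1:**
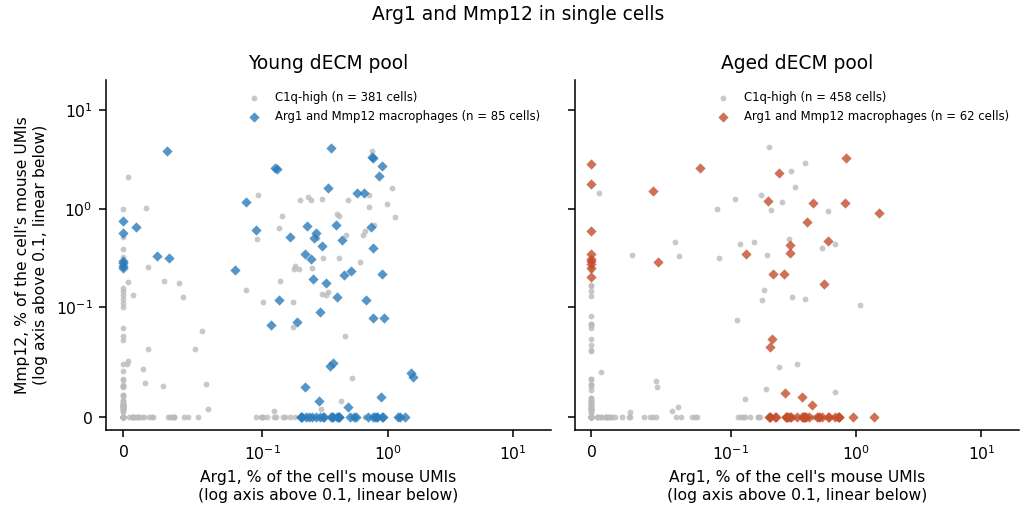
Arg1 (x axis) and Mmp12 (y axis) as percent of each cell's mouse UMIs, for members (diamonds, 85 and 62 cells) and C1q-high macrophages (grey circles, 381 and 458 cells) in the young and aged pools; both axes are logarithmic above 0.1 and linear below. Members lie along both axes and in the corner where both genes are present.

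Against C1q-high macrophages, members had more Inhba, Serpinb2, Cxcl3 and F10 and more transcripts of 12 hypoxia and glycolysis genes, and less Ccl8, Cx3cr1 and Fcrls. Among 5180 genes with at least 100 UMIs over both classes in each pool and 20 CPM in either class, 119 were higher by 2-fold or more in both pools, 2.3% of those measured, and 231 were lower, 4.46%. The median gene was at a log2 ratio of -0.15. Scaling by the median of ratios moved that median to 0.01 and gave 167 higher and 173 lower genes, and TMM scaling gave 146 and 190. These classes were cut from the same counts, so the differences describe them and are no test.

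The 12 genes with the highest ratios, ranked by the smaller ratio of the pools, were Inhba, Serpinb2, Cxcl3, Slpi, F10, Vcan, Thbs1, Rgcc, Saa3, Areg, Egln3 and Fbxl5. F10, which encodes coagulation factor X, was among the most evenly spread: 65 of 85 and 42 of 62 members held it, at 336 and 285 CPM against 46.5 and 23.3 CPM in C1q-high cells (7.23-fold, 6.05 to 8.66, and 12.2-fold, 9.71 to 15.5). Monocytes had a like level of 286 and 278 CPM. Egln3, a hypoxia-induced prolyl hydroxylase that acts on HIF, was found in 60 and 36 members, at 212 and 146 CPM against 45.0 and 23.1 CPM.

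Thbs1, encoding the matrix glycoprotein thrombospondin 1, which can activate latent TGF-beta, had 346 and 463 CPM in members and 49.9 and 74.0 CPM in C1q-high cells (6.95-fold, 5.84 to 8.28, and 6.25-fold, 5.39 to 7.25). Vcan, encoding the proteoglycan versican, had 80.0 and 180 CPM against 11.7 and 9.83 CPM. Both genes are known from monocytes, where Thbs1 was at 517 and 457 CPM and Vcan at 244 and 214 CPM. Members thus lay between C1q-high macrophages and monocytes for Vcan, and below monocytes for Thbs1 in the young pool.

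Serpinb2, the plasminogen activator inhibitor of macrophages, was 26.6-fold (17.5 to 41.7) and 20.6-fold (13.03 to 33.8) higher but rested on few cells. It was found in 9 and 8 members, with 40.7% and 48.1% of its UMIs in 1 cell. Saa3, an acute phase serum amyloid, was found in 18 and 12 members, and Areg, the EGFR ligand amphiregulin, in 18 and 11. In the young and aged pools 1 cell held 36.4% and 63.8% of the members' Areg. Collagen-positive cells had 643 and 580 CPM of Serpinb2. Each of the 3 genes was thus found in a minority of members.

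Cxcl3, a neutrophil chemoattractant, had 2184 and 1492 CPM in members and 121 and 91.3 CPM in C1q-high cells (18.0-fold, 16.4 to 19.8, and 16.3-fold, 14.6 to 18.3). Neutrophils themselves had 1321 and 1714 CPM and human barcodes 735 and 637 CPM of it. Slpi, a secreted inhibitor of neutrophil proteases, had 375 and 274 CPM in members, 25.9 and 22.7 CPM in C1q-high cells and 762 and 908 CPM in monocytes. Rgcc, a regulator of the cell cycle, and Fbxl5, an iron-sensing ubiquitin ligase subunit, were likewise at 357 and 346 CPM and at 518 and 532 CPM in neutrophils. The part of neutrophil RNA in these 4 genes was not tested.

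The 12 genes with the lowest ratios were Ccl8, Cx3cr1, Fcrls, Tmem176a, Cd72, Tmem176b, Col14a1, Hist1h2ae, Rapsn, Ighm, Pdgfb and Hist1h2ap. Ccl8, a monocyte-attracting chemokine of resident macrophages, had 13.2 and 1.31 CPM in members (12 and 1 UMIs) and 336 and 425 CPM in C1q-high cells. Cx3cr1, the fractalkine receptor, had 11.0 and 14.4 CPM against 277 and 321 CPM, a ratio 25.3-fold (13.7 to 52.8) and 22.2-fold (12.4 to 44.6) lower. Fcrls, an Fc receptor-like scavenger gene of tissue macrophages, had 16.4 and 13.1 CPM against 363 and 370 CPM.

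Cd72, an inhibitory C-type lectin, had 7.67 and 18.4 CPM in members and 233 and 280 CPM in C1q-high cells. The paired membrane protein genes Tmem176a and Tmem176b had 4.38 and 21.0 CPM and 6.58 and 28.8 CPM, against 310 and 405 CPM and 307 and 382 CPM. In monocytes these 2 genes were at 131 and 198 CPM and at 203 and 286 CPM, so members were below both other classes. Pdgfb, encoding a PDGF subunit, had 2 and 4 UMIs in members, and the histone gene Hist1h2ap 3 and 7.

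**Figure D2:**
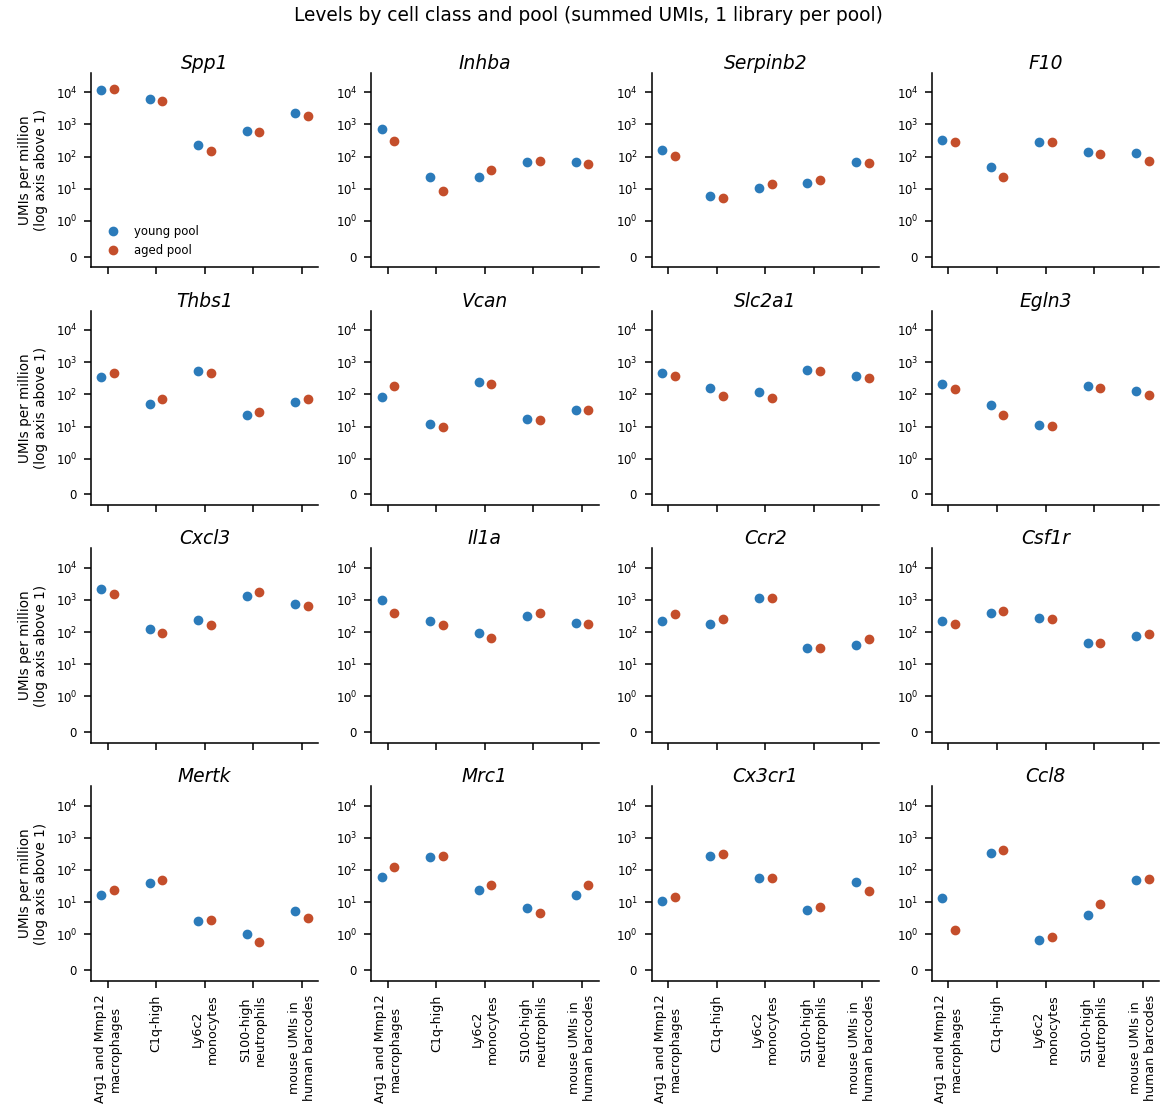
Level of 16 genes (y axis, CPM, logarithmic above 1) in 5 cell classes (x axis), 1 point per pool (blue young, red aged). Inhba and Serpinb2 are high in members against the other myeloid classes, F10, Thbs1 and Vcan are shared with monocytes, and Mertk, Mrc1, Cx3cr1 and Ccl8 are highest in C1q-high macrophages.

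Genes of hypoxia and glycolysis were higher as a group. Of 26 measured genes of that list 12 were 2-fold or more higher in both pools and 0 were lower, against 2.3% and 4.46% of all measured genes, and the list's median log2 ratio was 1.03. Slc2a1, the glucose transporter GLUT1, was found in 75 of 85 and 54 of 62 members, at 471 and 368 CPM against 161 and 91.3 CPM (2.92-fold, 2.59 to 3.30, and 4.04-fold, 3.47 to 4.69). Ndrg1, a stress-responsive gene induced by low oxygen, had 737 and 557 CPM against 262 and 161 CPM.

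Pgk1, the glycolytic phosphoglycerate kinase, had 1492 and 1269 CPM in members and 613 and 428 CPM in C1q-high cells. Hilpda, a lipid droplet protein induced by hypoxia, had 2253 and 1736 CPM against 719 and 507 CPM. Monocytes were below C1q-high cells for both, at 351 and 250 CPM of Pgk1 and at 215 and 114 CPM of Hilpda. Neutrophils were also high in several of these genes, with 560 and 536 CPM of Slc2a1. The list's lowest members were Pdk1, Hk2 and P4ha1, none of which passed 2-fold in both pools.

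Inflammatory genes were also higher or within 2-fold. Of 14 measured genes 5 were higher (Il1a, Ptgs2, Cxcl1, Cxcl2 and Cxcl3) and 0 lower, with a median log2 ratio of 0.79. Il1a, the interleukin 1 alpha alarmin, had 1005 and 391 CPM in members and 219 and 164 CPM in C1q-high cells. Cxcl1, a CXCR2 ligand, had 3897 and 2542 CPM against 803 and 658 CPM (4.85-fold, 4.63 to 5.08, and 3.86-fold, 3.65 to 4.09), and neutrophils had less of it, 175 and 246 CPM. Ptgs2, the inducible prostaglandin synthase COX-2, had 1747 and 1192 CPM against 322 and 311 CPM. Tnf, the NF-kB inhibitor gene Nfkbiz and Csf1 did not pass 2-fold in both pools. The 20 genes of the list summed to 38660 and 25807 CPM in members and to 12233 and 11352 CPM in C1q-high cells. Neutrophils had more than members, 54107 and 54634 CPM, and mouse UMIs of human barcodes had 32991 and 28215 CPM.

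Among chemokines and their receptors the list split: 3 of 19 genes were higher (Ccl9, Ccl24 and Pf4) and 4 lower (Ccl8, Ccl12, Cxcl16 and Cx3cr1), with a median of -0.12. Pf4, the platelet factor 4 chemokine also made by macrophages, had 3799 and 1985 CPM against 1324 and 902 CPM. Ccl12, a monocyte attractant, had 16.4 and 61.6 CPM against 197 and 243 CPM.

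Proteases and their inhibitors outside the rule included 5 of 17 genes higher (Mmp8, Ctsl, Plaur, Adam8 and Serpinb2) and 0 lower, with a median of 0.01. Ctsl, the lysosomal protease cathepsin L, had 12568 and 11159 CPM in members and 5973 and 4271 CPM in C1q-high cells (2.10-fold, 2.06 to 2.15, and 2.61-fold, 2.55 to 2.68). Mmp8, a collagenase best known from neutrophils, had 219 and 163 CPM against 47.6 and 23.3 CPM and was at 174 and 191 CPM in neutrophils. Mmp13, a collagenase of macrophages and stroma, had 274 and 409 CPM against 139 and 67.6 CPM and did not reach 2-fold in the young pool.

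Most arginine genes other than Arg1 lay within 2-fold. Of 9 measured, 1 was higher, Slc7a2, the cationic amino acid transporter that imports arginine, at 84.4 and 97.0 CPM against 26.8 and 18.1 CPM (3.15-fold, 2.33 to 4.22, and 5.37-fold, 3.90 to 7.39). Under TMM scaling 2 of the 9 were higher and under median of ratios scaling 3. Odc1, the ornithine decarboxylase that opens polyamine synthesis downstream of arginase, had 48.2 and 55.1 CPM against 44.1 and 51.8 CPM. Nos2, the inducible nitric oxide synthase that competes for arginine, did not pass the minimum in both pools; its levels were 251 and 70.8 CPM in members and 10.6 and 9.03 CPM in C1q-high cells.

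Genes usually listed with arginase as alternative activation markers went in both directions. Of 7 measured, 1 was higher (Ccl24) and 2 lower (Mrc1 and Folr2), with a median of -0.47. Mrc1, the mannose receptor CD206, had 59.2 and 125 CPM in members and 249 and 276 CPM in C1q-high cells. Retnla, a classical partner of Arg1 after interleukin 4, had 0 UMIs in members of either pool. Chil3 had 47.1 and 14.4 CPM in members and 271 and 235 CPM in monocytes.

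Several genes for taking up apoptotic cells and debris were lower. Of 13 measured genes of that list 7 were lower (Mertk, Axl, Gas6, Stab1, Mrc1, Fcgr4 and Fcrls) and 0 higher, with a median of -1.02, and under median of ratios scaling 5 were lower. Mertk, a receptor kinase for apoptotic cells, had 16.4 and 23.6 CPM against 40.1 and 48.4 CPM, and its ligand gene Gas6 had 6.58 and 10.5 CPM against 88.6 and 97.3 CPM. Msr1, the scavenger receptor A, was at 422 and 570 CPM against 364 and 325 CPM.

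Interferon, class II and cell cycle genes were also lower or not higher. Of 11 interferon-response genes 4 were lower, among them Irf7 and Oasl2, with a median of -1.04, and under median of ratios scaling 2 were. Of 8 genes of class II presentation and costimulation 1 was lower, H2-Eb1, at 538 and 627 CPM against 1301 and 1543 CPM. Of 6 cell cycle genes 4 were lower (Mki67, Top2a, Stmn1 and Ube2c), and Mki67, the proliferation marker, had 10 and 20 UMIs in all members. Apoe, a lipid carrier of mature macrophages, was 2.73-fold (2.67 to 2.79) and 2.88-fold (2.81 to 2.94) lower in members, at 10380 and 11045 CPM.

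Activin and TGF-beta genes differed one by one. Of 13 measured, Inhba and Thbs1 were higher and Gdf15, Gdf3 and Tgfbr1 lower, with a median of -0.15. Acvrl1, a type I receptor of the family, had 65.8 and 59.0 CPM against 41.2 and 30.1 CPM. Gdf15, a stress-induced ligand, had 5 and 6 UMIs in members and 28.4 and 65.8 CPM in C1q-high cells.

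The remaining lists gave small counts. Growth factors had 3 of 9 higher (Hbegf, Areg and Anxa1) and 1 lower, checkpoint and suppressive genes 2 of 12 higher (Cd274, encoding PD-L1, and Nt5e, encoding CD73) and 1 lower, and iron, haem and redox genes 2 of 13 higher (Slc7a11 and Mt2). Cd274 had 155 and 121 CPM in members and 56.7 and 39.5 CPM in C1q-high cells, and neutrophils had 282 and 249 CPM. Lipid handling genes had 0 of 14 higher and 2 lower (Apoe and Pltp). Il7r, the interleukin 7 receptor chain, was found in 65 of 85 and 47 of 62 members, at 465 and 362 CPM against 195 and 121 CPM, and Gata3 beside it was at 0.

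**Figure D3:**
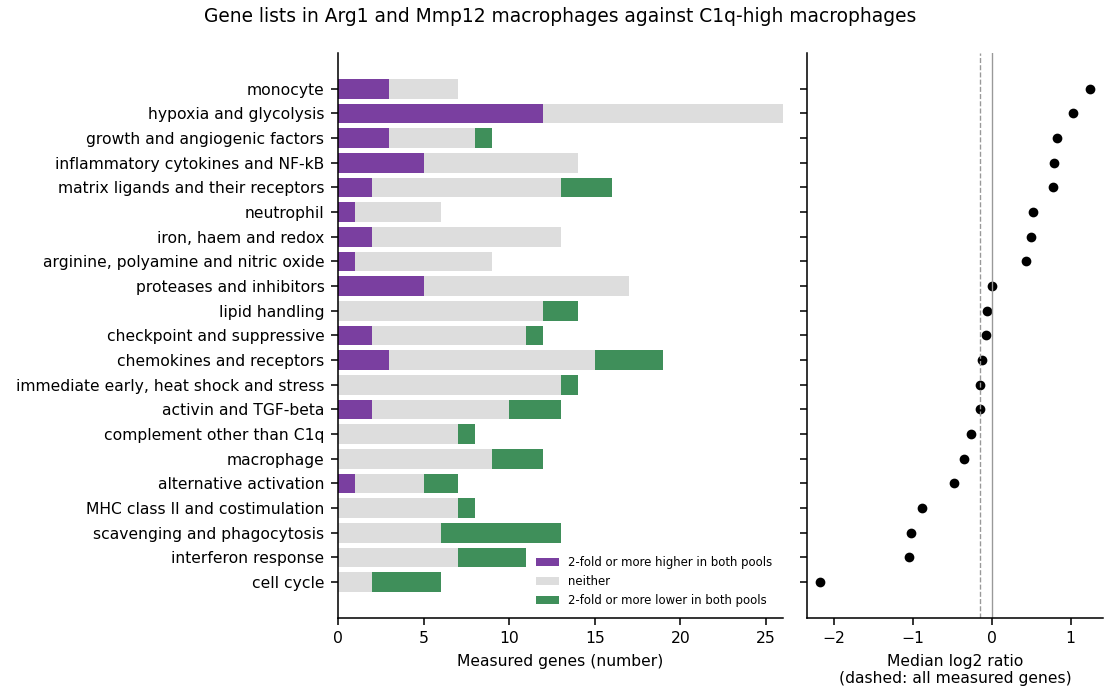
Left, number of measured genes of each list that were 2-fold or more higher, 2-fold or more lower, or neither in members against C1q-high macrophages in both pools; right, the list's median log2 ratio (mean of both pools), with a dashed line at -0.15 for all measured genes. Hypoxia and glycolysis has 12 of 26 genes higher and scavenging and phagocytosis 7 of 13 lower.

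The share of Arg1 and of Mmp12 varied between members. At least 1 UMI of Arg1 was found in 79 of 85 and 53 of 62 members and of Mmp12 in 55 and 31, so many held both. With 0.1% of mouse UMIs as the limit for each gene, 43 of 85 and 36 of 62 members had Arg1 only, 13 and 12 Mmp12 only, and 29 and 14 both. The rank correlation of the genes across members was -0.28 and -0.37; the rule sets a minimum for their sum, so the sign is not a finding. Cells with Mmp12 held more transcripts, with a median of 11789.5 and 13000.5 UMIs against 6818 and 8626.5 for cells with Arg1 only.

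Spp1, Ctsl and Ctsb were higher in cells with Mmp12, and Thbs1, Ccr2 and Plac8 in cells with Arg1 only. Of 1012 genes measured outside the rule in both pools, 16 (1.58%) were 2-fold or more higher in cells with Mmp12 and 36 (3.56%) were lower. Spp1 had 17710 and 20158 CPM in cells with Mmp12 and 2256 and 4755 CPM in cells with Arg1 only (7.85-fold, 7.31 to 8.45, and 4.24-fold, 4.02 to 4.47). In the aged pool 1 of the cells with Mmp12 held 36.0% of that sum.

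Part of the protease list was higher with Mmp12. Of 13 measured genes of the protease list 6 were higher with Mmp12 (Mmp13, Ctsb, Ctsk, Ctsl, Plau and the inhibitor gene Timp2) and 0 lower, with a median log2 ratio of 1.30 against -0.08 for all measured genes. Ctsl, found in every member with Mmp12 of the young pool and in 24 of 26 of the aged pool, had 17336 and 17895 CPM against 5221 and 3560 CPM (3.32-fold, 3.16 to 3.49, and 5.03-fold, 4.74 to 5.34). Ctsb, the lysosomal protease cathepsin B, was 2.08-fold (1.92 to 2.27) and 2.90-fold (2.66 to 3.16) higher. Timp2, a metalloproteinase inhibitor, was found in 24 of 42 and 18 of 26 cells with Mmp12. Its level was 352 and 705 CPM against 103 and 78.1 CPM. In the aged pool the top cell with Mmp12 held 39.9% of Mmp13, 30.5% of Ctsl, 28.4% of Timp2 and 22.3% of Ctsb. In the young pool it held 21.2%, 19.7%, 24.6% and 16.6%. Whether the ratios hold without each gene's top cell was not tested.

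Fabp5, a fatty acid carrier, was 2.91-fold (2.63 to 3.22) and 3.01-fold (2.74 to 3.31) higher with Mmp12, and Cd63, a lysosomal membrane protein, 2.28-fold (1.87 to 2.79) and 3.15-fold (2.67 to 3.73). Gpnmb, a glycoprotein of lipid-laden macrophages, had 477 and 1041 CPM against 41.8 and 8.37 CPM. In the young pool 77.7% of the Gpnmb UMIs with Mmp12 were in 1 cell. Ctsk, the collagen-cleaving cathepsin K, had 62.7% in 1 cell of the aged pool. For Fabp5 and Cd63 the top cell with Mmp12 held 33.3% and 31.7% in the aged pool.

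Cells with Arg1 only had more of the monocyte genes. Of 4 measured genes of the monocyte list 3 were lower in cells with Mmp12 (Ccr2, Plac8 and F10), with a median of -1.96. Ccr2, the receptor that draws monocytes to CCL2, was found in 30 of 43 and 32 of 36 cells with Arg1 only, at 390 and 622 CPM against 107 and 121 CPM (3.66-fold, 2.68 to 5.04, and 5.13-fold, 3.75 to 7.15). Monocytes had 1179 and 1159 CPM, and Ly6c2 was at 19.5 and 39.1 CPM in cells with Arg1 only. Plac8, a gene of monocytes and other myeloid cells, was found in 27 and 24 cells with Arg1 only, at 621 and 483 CPM against 36.1 and 109 CPM.

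Thbs1 came first when genes were ranked by the smaller ratio of the pools. Its level was 782 and 924 CPM in cells with Arg1 only and 63.3 and 54.4 CPM in cells with Mmp12 (12.4-fold, 8.69 to 18.1, and 17.0-fold, 11.0 to 27.5), and 26 of 43 and 26 of 36 against 6 of 42 and 8 of 26 cells held it. Tgfbi, a matrix protein induced by TGF-beta, was found in 42 of 43 and 36 of 36 cells with Arg1 only and was 2.97-fold (2.56 to 3.45) and 5.35-fold (4.49 to 6.40) higher there. Ifitm3, an interferon-induced membrane protein, was 6.15-fold (4.99 to 7.63) and 3.99-fold (3.31 to 4.83) higher. Cxcl3 and Ptgs2 were also higher with Arg1 only, at 4213 and 2475 CPM and at 2732 and 1791 CPM.

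The hypoxia genes differed less across the split, and Inhba did so in the young pool only. Inhba had 657 and 184 CPM in cells with Arg1 only and 781 and 425 CPM in cells with Mmp12. That was 1.19-fold (1.01 to 1.40) and 2.31-fold (1.73 to 3.12) higher with Mmp12. Of 21 measured hypoxia and glycolysis genes 0 were higher and 0 lower by 2-fold with Mmp12, with a median log2 ratio of 0.11. The heat-shock genes Hspa1a and Hspa1b were also higher with Arg1 only, by 3.702-fold (2.80 to 4.94) and 4.70-fold (3.25 to 6.93) in the young pool and by 6.60-fold (4.93 to 8.98) and 16.0-fold (9.33 to 29.9) in the aged pool. They were held by 10 and 9 such cells of the young pool, with 80.7% of Hspa1b in 1 cell, and by 14 and 14 of the aged pool, with 25.6% and 23.1% in the top cell.

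**Figure D4:**
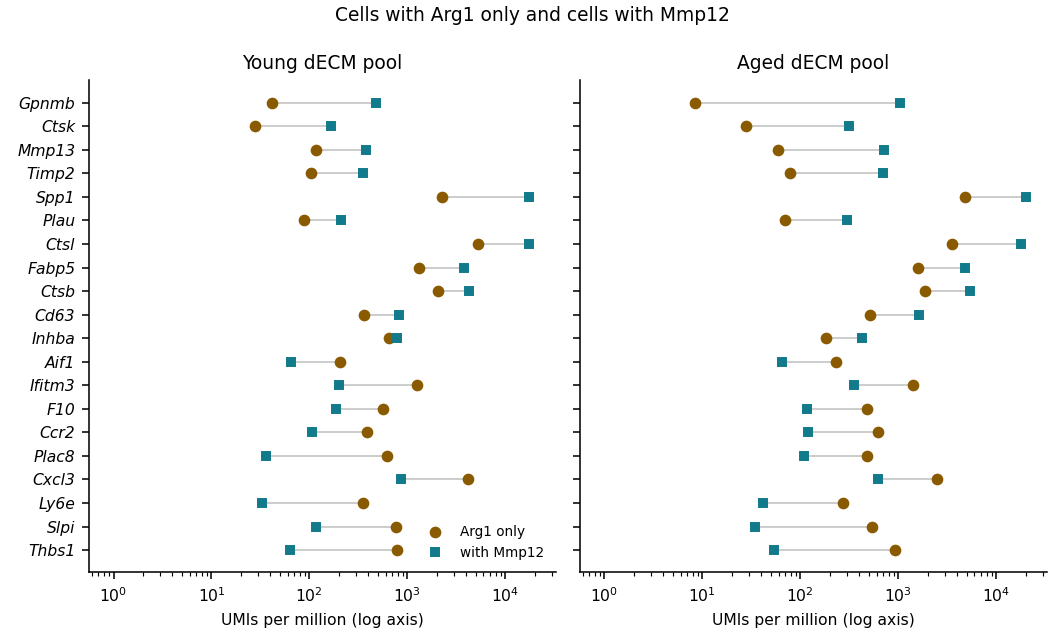
Level of 20 genes (x axis, CPM, logarithmic) in members with Arg1 only (circles, 43 and 36 cells) and in members with Mmp12 (squares, 42 and 26 cells), by pool. Spp1, Ctsl, Ctsb and Timp2 lie higher with Mmp12, Thbs1, Ccr2, Plac8 and F10 lie higher with Arg1 only, and Inhba lies close in the young pool.

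Between the pools, members of the aged pool had less Inhba and less of several inflammatory genes. Of 2134 genes measured in members of both pools 121 (5.67%) were 1.5-fold or more higher in the aged pool and 55 (2.58%) lower, but the balance turned with scaling: TMM gave 67 and 92, and the median of ratios 57 and 103. In C1q-high macrophages 59 of 5462 genes (1.08%) were higher and 76 (1.39%) lower, from more cells. Among 2123 genes measured in both classes, members had 119 higher and 50 lower, C1q-high cells 5 and 40, and 2 were higher and 9 lower in both. Counting error is wide near the minimum of 100 UMIs, where Rhoc with 35 and 68 UMIs had an interval of 1.52 to 3.60, so the counts hold sampling error.

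Inhba was 2.35-fold (2.02 to 2.73) lower in the aged pool, 312 against 732 CPM, with 25 of 62 and 43 of 85 members holding it and 16.8% and 12.9% of UMIs in the top cell. C1q-high cells went the same way from much lower levels, 2.59-fold (1.80 to 3.80). The log2 ratio was -1.84 in cells with Arg1 only and -0.88 in cells with Mmp12. Spp1 was 1.11-fold (1.08 to 1.14) higher in the aged pool, without a stable direction: its log2 ratio of 0.15 became -0.61 with a C1q limit of 0.1% for members, -0.41 in members with 1 hashing tag and 1.08 in members with Arg1 only. Arg1 and Mmp12 themselves were 1.31-fold (1.25 to 1.38) and 1.43-fold (1.38 to 1.49) lower.

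Nos2 had 251 CPM in the young and 70.8 CPM in the aged pool (3.54-fold lower, 2.63 to 4.86), in 40 and 20 members. Il1a had 1005 and 391 CPM (2.57-fold lower, 2.25 to 2.94), in 60 and 25 members, and C1q-high cells differed by 1.34-fold (1.22 to 1.47). Ccl3, an inflammatory chemokine, had 892 and 326 CPM in members (2.73-fold lower, 2.37 to 3.16), whereas C1q-high cells had 324 and 380 CPM. Leaving out each gene's top cell kept these 3 genes and Inhba lower, at log2 ratios of -1.89 for Nos2, -1.45 for Il1a, -1.54 for Ccl3 and -1.32 for Inhba. In members with 1 hashing tag the log2 ratio of Nos2 was -0.48, short of 1.5-fold.

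The inflammatory list had 0 of 13 measured genes higher and 5 lower in the aged pool (Il1a, Tnf, Nfkbiz, Cxcl1 and Cxcl2), with a median log2 ratio of -0.55 against 0.07 for all genes measured in members. Under either other scaling 9 of 13 were lower. Cxcl2, a CXCR2 ligand, had 16433 and 9756 CPM in members (1.68-fold lower, 1.64 to 1.73) and 3639 and 3440 CPM in C1q-high cells. Chemokines and receptors had 5 of 15 lower (Ccl3, Ccl4, Ccl7, Pf4 and Cxcl10) and 1 higher (Ccr2). Iron, haem and redox genes had 3 of 12 lower (Hmox1, Mt1 and Mt2), or 6 of 12 under either other scaling. Of all genes measured in members 2.58% were lower and 5.67% higher. Hmox1, the haem-degrading oxygenase, was 1.62-fold (1.49 to 1.77) lower in members and 1.73-fold (1.65 to 1.81) lower in C1q-high cells.

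For several other genes at the ends of the comparison, 1 cell held a large share of the UMIs. Rsad2, an interferon-induced antiviral enzyme, had 170 UMIs in the young and 4 in the aged pool, with 73.5% of the former in 1 cell, and Cxcl10 had 81.2% of its young-pool UMIs in 1 cell. Ereg, an EGFR ligand, had 56.4% and Areg 36.4% of their young-pool UMIs in 1 cell. Among the 8 genes highest in the aged pool, Sparc, Cd36 and Lpl had 49.2%, 50.3% and 48.6% of their aged-pool UMIs in 1 cell. Without the top cell, the direction held for Rsad2 (log2 ratio -3.66), Ereg (-4.30), Areg (-2.92), Sparc (2.82), Cd36 (2.23) and Lpl (2.44). Cxcl10 did not keep its direction under every alternative, with log2 ratios from -4.18 to 1.94. Among members with 0.4% or more of Arg1 and Mmp12 the log2 ratio of Sparc was 0.19, among members with Mmp12 that of Rsad2 was -0.28, among members with Arg1 only that of Lpl was 0.003, and with the limit at 0.1% that of Areg was -0.53, all short of 1.5-fold.

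Sparc, a matrix protein of fibroblasts, was also at 362 and 906 CPM among mouse UMIs of human barcodes, and its level in members was 14.2 and 165 CPM; the 5 fibroblast genes outside the rule summed to 23.0 and 212 CPM in members, and its part in the pool comparison was not tested. Of the others, Bcl2a1d, a survival gene of the BCL2 family, was found in 34 and 25 members and was 2.33-fold (1.69 to 3.24) higher, and Ckb, the creatine kinase of brain and osteoclasts, in 11 and 20 members and 3.46-fold (2.35 to 5.20) higher. Ada, encoding adenosine deaminase, Cstdc4, of the stefin family, and Rhoc were 2.78-fold, 2.42-fold and 2.32-fold higher with 16, 12 and 19 aged-pool members holding them. The log2 ratio fell short of 1.5-fold for Bcl2a1d without the members of hashing tag H-HTO-2 (0.11) and in members with Arg1 only (0.49), for Rhoc in members with 1 hashing tag (0.083) and for Cstdc4 in members with Arg1 only (0.40). Cstdc4 was at 2382 and 2206 CPM in neutrophils.

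Of 7 measured monocyte genes, 3 were 1.5-fold or more higher in the aged pool (Ccr2, Ms4a4c and Vcan) and 0 lower. Of all genes measured in members 5.67% were higher and 2.58% lower. Under TMM scaling 2 of the 7 were higher and under median of ratios scaling 1, so the count depends on scaling. Ccr2 had 218 and 357 CPM (1.64-fold higher, 1.36 to 1.97) and differed by 1.42-fold (1.30 to 1.56) in C1q-high cells. Mrc1 had 59.2 and 125 CPM (2.10-fold higher, 1.49 to 3.00), in 19 and 21 members.

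A difference in Xist touches every comparison of the pools. Xist, the RNA of the inactive X chromosome, was 3.67-fold (2.96 to 4.59) lower in aged-pool members, at 501 and 136 CPM, and was found in 57 of 85 and 14 of 62 of them. C1q-high macrophages had 384 and 227 CPM of Xist, with 241 of 381 and 146 of 458 cells holding it. The Y-linked genes Ddx3y and Eif2s3y were found in 0 and 1 members of the young pool and in 1 and 0 of the aged pool; among C1q-high cells Ddx3y was found in 3 and 9 and Eif2s3y in 1 and 12. The design text places both matrices in the same mice, while Xist was lower in the aged pool in both members and C1q-high cells. The labels do not say which animals each pool holds and tie no hashing tag to an animal, so the part of the hosts in the pool comparison was not tested.

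**Figure D5:**
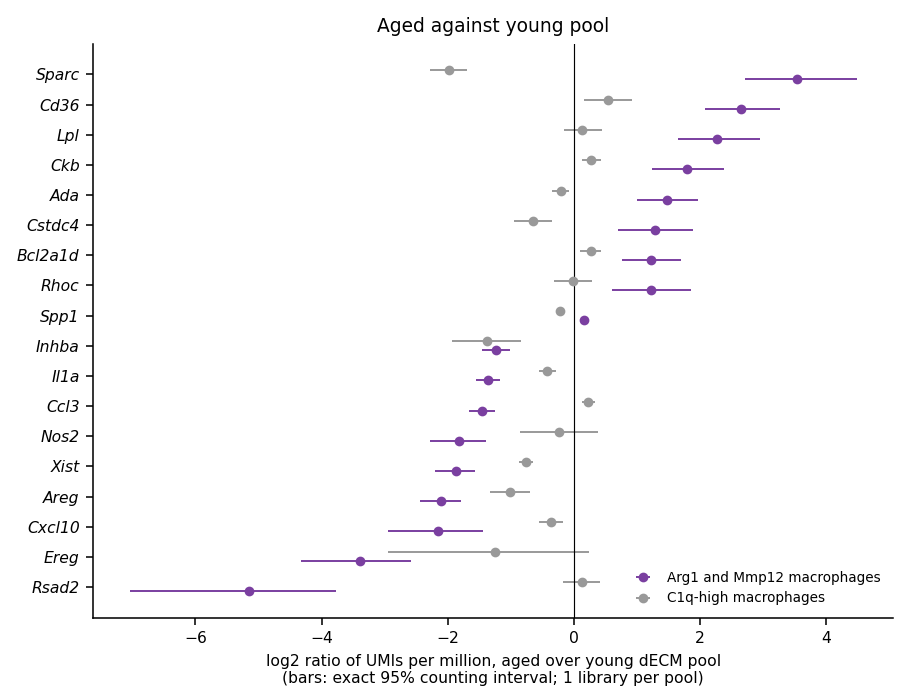
Log2 ratio of CPM, aged over young pool (x axis), for Spp1, Inhba and the 8 genes at each end in members, with exact 95% counting intervals, in members (purple) and C1q-high macrophages (grey). Inhba, Il1a and Nos2 lie below 0 in members, and Sparc lies on opposite sides of 0 in members and C1q-high cells.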

How the data were processed

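Single-cell 3' libraries of 2 pools were used as the authors deposited them: filtered matrices of UMI counts per gene and barcode, 36601 human and 32285 mouse genes and 52 antibody features per the file headers. Cell Ranger 6.0.0 and a combined GRCh38 and mm10 reference are named in the submitters' processing notes. Antibody counts were used only for hashing tags in an alternative. Class levels are sums of mouse UMIs over cells, scaled to 1000000 mouse UMIs (CPM), with exact 95% intervals (Clopper-Pearson) from scipy 1.17.1. Ly6c2 monocytes had 0.05% or more Ly6c2, neutrophils 3% or more of S100a8 and S100a9, collagen-positive cells 0.1% or more collagen, and human barcodes were compared by their mouse UMIs as a measure of free RNA.

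Class ratios were called at 2-fold in both pools and pool ratios at 1.5-fold, among genes with 20 CPM in either group and 100 UMIs. With 1 library a group no test was run. Counts under 3 in a group were set to a floor of 3 in the log2 ratios used for calls and ranks. Fold values given with an interval had no floor. Shares of cells thinned to 1800 UMIs are expected values of random draws. Doublets were not removed in the main analysis. Scrublet (scanpy 1.11.5) set no usable threshold, and a score of 0.25 served as an alternative, which marked 4 and 2 members. Scripts were tested on simulated data. TMM factors came from edgeR 4.0.16.

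Genes were named by rule: the 4 given markers, the 12 highest and 12 lowest class ratios (ranked by the smaller fold of the pools), up to 3 genes at each end of each list, and the 8 highest and 8 lowest pool ratios; the genes called higher or lower in a list are named as well. Other genes (among them Mertk, Stab1, Nos2 beside C1q-high cells, Pgk1, Hilpda, Ndrg1, Ctsl, Il7r, Mki67 and those of the split within members) were chosen after their values were seen. The members and gene lists were chosen with earlier results of these data known.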

Additional observations from a re-analysis of the deposited data

Results flagged for a closer look

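Among 5180 genes measured outside the rule, 2 passed 2-fold in opposite directions in the pools when members were compared with C1q-high macrophages. Genes that changed direction by less, some named genes among them, are not counted here. The difference was not tested because each pool is 1 library. Sparc, a matrix protein of fibroblasts, had a log2 ratio of -2.85 in the young pool and 2.67 in the aged pool, a difference of 5.52. In the aged pool 49.2% of the 126 Sparc UMIs of members were in 1 cell. Rsad2, an interferon-induced gene, had a log2 ratio of 2.21 in the young pool and -3.07 in the aged pool, a difference of -5.275. In the young pool 73.5% of its 170 UMIs were in 1 cell.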

How the results depend on the processing

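No paired analysis was possible because each matrix age has 1 gene expression library. Of the values that answer a comparison, 62 stayed within 1.5 times or within their counting interval and 20 did not. The members' share of mouse barcodes was 0.625% in the aged pool with Arg1 and Mmp12 at 0.1% or more, 0.435% and 0.232% at 0.4% or more, and 1.81% and 1.17% when mouse barcodes needed a mouse share of 0.98, which leaves fewer barcodes in the total. Against C1q-high cells, the main analysis gave 119 higher and 231 lower of 5180 genes measured. With Arg1 and Mmp12 at 0.4% or more, 374 of 5095 were lower, and with every cell weighted equally 182 of 5180 were higher. A minimum of 100 CPM left 1444 genes, 75 higher and 60 lower. Without each gene's top member cell, an alternative chosen after seeing the data, 353 of 5111 were lower.

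Between the pools, the main analysis gave 121 higher and 55 lower of 2134 genes measured. Of the same number, 67 were higher and 92 lower under TMM scaling, and 57 and 103 under median of ratios scaling. A minimum of 100 CPM left 1433 genes, 73 higher and 36 lower. Genes higher numbered 60 of 1379 with Arg1 and Mmp12 at 0.4% or more and 80 of 1918 without each gene's top cell. In cells with Arg1 only, also chosen after seeing the data, 74 of 1003 were higher. Without the members of hashing tag H-HTO-2, 103 of 1807 were lower. Cxcl10 turned to a log2 ratio of 0.19 with Arg1 and Mmp12 at 0.4% or more and to 1.94 in members with 1 hashing tag. The cause of these shifts was not tested. Of the values for single genes, 640 stayed in place, 164 moved and 2 reversed. Spp1 also turned, from a log2 ratio of 0.15 to -0.61 with a C1q limit of 0.1% for members and -0.41 in members with 1 hashing tag. Ccl3, Il1a and Inhba stayed lower in the aged pool by over 1.5-fold under each alternative run, and Nos2 stayed lower but reached -0.48 in members with 1 hashing tag. Depth limits genes with few UMIs in 85 and 62 cells.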
